A study of Mus musculus with 6 samples.

Results

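The genes of the eukaryotic translation initiation factors were described in mouse oocytes at the start and the end of meiotic maturation. They were all genes whose symbol starts with Eif followed by a digit and whose mean over the 6 libraries was above 0, which included the cap-binding paralog Eif4e1b, the eIF4E transporter Eif4enif1 and the eIF4E-binding protein genes Eif4ebp1 and Eif4ebp2. The family had 57 entries in the table, of which 54 were kept out of 22416 genes in all, and Eif3j2, Eif5a2 and Eif4ebp3 were left out because they were at 0 in every library. Ribo-lite, a form of ribosome profiling for small numbers of cells, was used, which sequences the short mRNA fragments shielded by a ribosome (footprints). Each library was made from 500 oocytes of the WT genotype, taken from 4-week-old female mice (C57BL/6 background per the study's methods) at 44 h after 5 IU of PMSG, a hormone that stimulates follicle growth. WT_FGO oocytes were fully grown and at the germinal vesicle stage, WT_MII oocytes were controls matured in culture to metaphase II, and Treat_MII oocytes were matured in culture with a treatment, with n = 2 libraries per group. The labels name the treatment only as "Treat". In the study's methods it is BYBX, a small molecule that binds RNA G-quadruplexes (rG4s, folded stretches of G-rich RNA), and controls received the solvent DMSO. The study's supplement calls the Ribo-lite replicates biological. It does not state whether the 2 libraries of a group came from separate animals. The p-values therefore measure only the spread between these libraries, which may be partly technical.

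Translation of most mRNAs starts when eIF4E binds the 5′ cap, eIF4G joins it to the helicase eIF4A, and eIF3 brings in the small ribosomal subunit with eIF1, eIF1A, eIF5 and eIF2, which carries the initiator tRNA. eIF2 leaves with GDP and is reloaded with GTP by eIF2B, and kinases that phosphorylate eIF2 block that step. Fully grown oocytes store silent mRNAs, and repressors that hold eIF4E, such as the eIF4E-binding proteins and the eIF4E transporter, are among the proteins known to keep mRNAs silent.

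Scanning by these factors ends at a start codon, and the factors eIF1, eIF1A and eIF5 set how strictly its surroundings are read. The start sites of their own mRNAs, and of the other genes that differed between WT_FGO and WT_MII, were therefore read from the transcripts of the GENCODE mouse annotation, release 21 (assembly GRCm38, to which mm10 is identical). In each sequence the capitals mark the base at -3, the start codon and the base at 4, counting from the A of the start codon as 1, and T stands for U.
Eif1: gaatcgtatCgtATGTccgctatcca
Eif1b: cactagtgtCgcATGTccactatcca
Eif1ax: gtctttgcgGccATGCccaagaataa
Eif5: taataagccAaaATGTctgtcaacgt
Eif2b1: ctcgaggaaGccATGGaggacggtga
Eif3f: tttctcggcAagATGGcttctccggc
Eif4e1b: ttgagccttGtcATGGccacttctga
Eif4enif1: caccaagaaGccATGGagaaaagtgt
A purine at -3 with G at 4 is the favourable context. It was annotated in 22 of the 49 initiation factor genes with an ATG start and a long enough leader (44.9%), and in 43.7% of 14102 tested genes. Eif2b1, Eif3f, Eif4e1b and Eif4enif1 were among those 22 genes, while Eif1 and Eif1b had neither base. These genes lie at chr5:124570213-124579131 (Eif2b1, minus strand), chr9:120492232-120495330 (Eif1b, plus strand), chrX:159372178-159389928 (Eif1ax, plus strand), chr7:108934417-108942951 (Eif3f, plus strand), chr13:54783998-54788459 (Eif4e1b, plus strand) and chr11:3202392-3244588 (Eif4enif1, plus strand).

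The values were FPKM, footprint reads scaled to the coding length of a gene and to the reads of the library, so they compare levels between genes per length, and a change in the total footprints per oocyte is not visible. RNA-seq was not used here, so more mRNA and more ribosomes per mRNA cannot be told apart. Levels were compared on the scale of log2(FPKM + 1) with limma, and a gene was called when its p, adjusted over the 15129 genes that averaged at least 1 FPKM, was under 0.05. Of the 54 genes, 52 passed that filter. Eif2ak2 and Eif4a3l1 did not, with 2 reads in a single Treat_MII library and a value in WT_MII_1 alone. The depth behind the values was low. The library constants recovered from the FPKM were 94309 and 107251 reads in WT_FGO, 164972 and 230907 in WT_MII, and 331304 and 275604 in Treat_MII, so that depth differed between the groups. The 52 initiation factor genes with a known coding length had a median of 64 reads over the 6 libraries together, and 13 had fewer than 20. Footprint reads can also be shared with copies elsewhere. More than 50% of the 28-base words of the coding sequence occurred in transcripts of other genes for 11 members, among them Eif1 (98.1%), Eif4a1 (99.2%), Eif2s3x and Eif3j1, so their values are uncertain, while 17 members shared none, Eif2b1 and Eif4enif1 among them.

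All 12 oocyte markers had footprints, with summed levels of 18381 to 41894 FPKM per library. The 17 granulosa and cumulus markers, genes of the cells around the oocyte, summed to 1397 FPKM in WT_FGO_2 and to 132.7 to 287.0 FPKM in the other libraries. Tnfaip6 was at 0 in every library, and Inha gave 747.3 FPKM of the WT_FGO_2 sum. Of 7 blood and immune markers, Hbb-bs, Hbb-bt, Hba-a2 and Lyz2 were at 0 in every library, and the sums were 81.1 and 48.6 in WT_FGO and 3.13 to 14.6 FPKM in the metaphase II libraries. The part of granulosa footprints in the results was not tested; maturation differences without WT_FGO_2 are given for the called genes and for some others that it moved by over 1.5 times.

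Initiation factor genes together held 0.968% and 0.726% of the summed FPKM in WT_FGO, 0.517% and 0.539% in WT_MII, and 0.571% and 0.584% in Treat_MII. The WT_FGO libraries lay above all 4 metaphase II libraries. WT_MII was compared with WT_FGO to ask which of these genes gained or lost ribosomes, relative to the rest of the library, over control maturation. Between WT_FGO and WT_MII, footprints rose on 1 gene, Eif2b1, and fell on 5, Eif1ax, Eif1b, Eif3f, Eif4e1b and Eif4enif1. Over all tested genes, 3.67% were called higher and 3.09% lower, so 1 of 52 and 5 of 52 members stand beside 555 and 468 of 15129 genes. The median change of the 52 members was -1.07 on the log2 scale, beside -0.44 over all tested genes. For those that averaged at least 10 FPKM it was -1.14 over the members and -0.57 over all such genes. Over the 2706 genes with at least 60 reads in the 6 libraries together it was 0.23. The sign of the median over all genes thus changed with the genes included. Libraries did not overlap for 21 members that were lower in WT_MII (40.4%, against 25.8% of all tested genes) and for 7 that were higher (13.5%, against 15.3%). Non-overlap is more frequent at higher levels, and among genes that averaged at least 10 FPKM, 20 of 44 members were lower without overlap (45.5%) against 38.4% of such genes, and 7 were higher (15.9%) against 24%. At an unadjusted p under 0.05 there were 18 of 52 members, beside 22.8% of all tested genes. The ratio of mean FPKM + 1 was at least 2-fold, without a test, upward for 7 members and downward for 26, beside 23.6% and 41.8% of all tested genes. These shares also depend on level. Of the 44 members that averaged at least 10 FPKM, 1 was called higher and 5 lower, beside 545 and 443 of 6521 such genes. The unadjusted count was 18 of these 44, beside 2601 of the 6521. The 2-fold counts were 4 upward and 25 downward, beside 1586 and 2754.

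**Figure D1:**
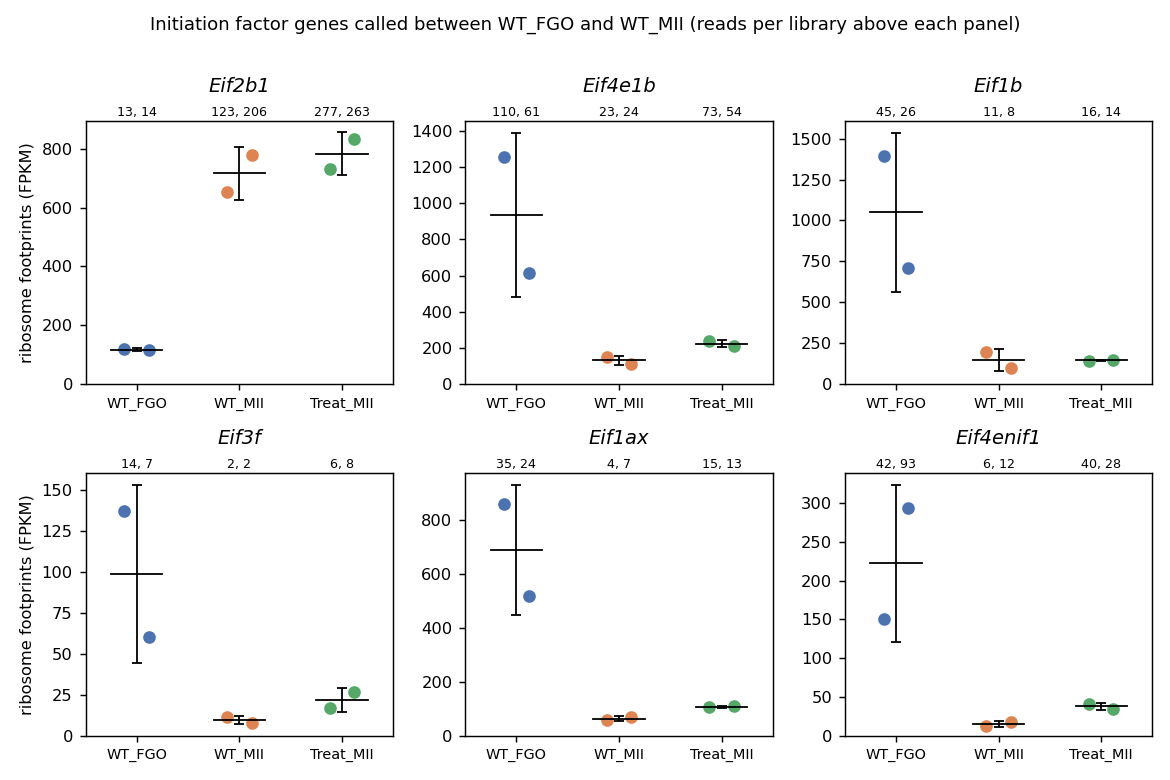
Footprint level (FPKM, linear axis from 0) of the 6 initiation factor genes called between WT_FGO and WT_MII. Points are libraries, lines and bars are the mean ± SD of n = 2, and the numbers above each panel are the reads of the 2 libraries. Eif2b1 lay at 114.2 and 120.6 in WT_FGO and at 652.3 FPKM or more in all 4 metaphase II libraries, whereas the other 5 genes were highest in both WT_FGO libraries.

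Eif2b1 encodes the alpha subunit of eIF2B, a regulatory subunit of this guanine nucleotide exchange factor. Its footprints were 120.6 and 114.2 in WT_FGO, 652.3 and 780.5 in WT_MII, and 731.5 and 834.9 FPKM in Treat_MII, from 13, 14, 123, 206, 277 and 263 reads. Every metaphase II library was above both WT_FGO libraries, and the treated and control libraries overlapped. The difference between WT_MII and WT_FGO was 2.59 ± 0.26 (SE) on the log2 scale (limma, adjusted p = 0.00521), and that between Treat_MII and WT_FGO was 2.72 ± 0.26 (adjusted p = 0.00516). Without WT_FGO_2 the maturation difference of Eif2b1 was 2.55 (limma, adjusted p = 0.0186).

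No other eIF2B subunit gene was called. Eif2b3, the gamma subunit, had 49.8 and 56.4 in WT_FGO, 16.3 and 5.82 in WT_MII, and 28.4 and 41.4 FPKM in Treat_MII. Its WT_FGO libraries were above all others, and its Treat_MII libraries were above both WT_MII libraries, with differences of -2.31 ± 0.66 (SE, limma, adjusted p = 0.0999) at maturation and 1.70 ± 0.66 (adjusted p = 0.843) with treatment, the latter 1.03 without WT_MII_2. Eif2b2, Eif2b4 and Eif2b5, the beta, delta and catalytic epsilon subunits, had 11 to 23 reads each over the 6 libraries and between 0 and 44.3 FPKM. Without Eif2b1, the eIF2B genes summed to 96.1 and 114.2 in WT_FGO, 37.9 and 32.5 in WT_MII, and 50.3 and 64.8 FPKM in Treat_MII. Eif2b1 accordingly made up 52.8% ± 4.0 (SD, n = 2) of the eIF2B footprints per length in WT_FGO, 95.3% ± 1.1 in WT_MII and 93.2% ± 0.5 in Treat_MII.

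The genes of eIF2 itself had few footprints. Eif2s2, the beta subunit, had the highest mean of the 4 over the 6 libraries, though not within WT_FGO, with 21.4 and 18.8 in WT_FGO, 24.4 and 8.7 in WT_MII, and 51.7 and 36.5 FPKM in Treat_MII. Its treated libraries were above all 4 others, with a treatment difference of 1.50 ± 0.68 (SE, limma, adjusted p = 0.904; 0.81 without WT_MII_2), which did not pass the test. Eif2s1, the alpha subunit that the eIF2 kinases phosphorylate, had 11.2, 39.5, 6.4, 13.7, 38.3 and 15.4 FPKM in the same order of libraries, and its treatment difference was 1.28 ± 0.89 (adjusted p = 0.932; 0.65 without Treat_MII_1 and 0.78 without WT_MII_1). More than 50% of the coding words of Eif2s1 and Eif2s2 occur in other transcripts. Eif2s3x and Eif2s3y, the X- and Y-linked gamma subunits, had 4 and 3 reads in all.

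Among the kinases, Eif2ak1 (HRI) was the highest, with 68.5 and 15.1 in WT_FGO, 71.8 and 174.9 in WT_MII, and 104.0 and 111.4 FPKM in Treat_MII. The WT_MII libraries lay above both WT_FGO libraries, but by little for the nearest pair, and the difference was 1.76 ± 0.80 (SE, limma, adjusted p = 0.27); it was 0.70 without WT_FGO_2, 2.82 without WT_FGO_1 and 1.12 without WT_MII_2. Eif2ak4 (GCN2), which senses uncharged tRNA, had 25.9, 21.04, 53.6, 61.1, 64.1 and 55.9 FPKM. Its 4 metaphase II libraries were all above WT_FGO, with a maturation difference of 1.26 ± 0.45 (adjusted p = 0.17). Eif2ak3 (PERK), the kinase of the endoplasmic reticulum, stayed between 3.2 and 18.9 FPKM in every library. Eif2a, an alternative carrier of initiator tRNA, had 12.2 and 58.8 in WT_FGO, 38.3 and 37.3 in WT_MII, and 67.5 and 60.4 FPKM in Treat_MII, with a maturation difference of 0.47 ± 0.77 (adjusted p = 0.762). Its WT_FGO libraries spanned the WT_MII values; without WT_FGO_2 the difference was 1.56 (adjusted p = 0.0383) and without WT_FGO_1 it was -0.63. Eif2d, a related factor, had 56.5 and 24.9 in WT_FGO and 6.5 and 16.2 FPKM in WT_MII (difference -1.77 ± 0.77, adjusted p = 0.246; -1.17 without WT_MII_1).

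eIF3 is the largest of the factors and the scaffold on which the small subunit meets the mRNA. Its 13 subunit genes summed to 1346 ± 163 FPKM (SD, n = 2) in WT_FGO, 566 ± 100 in WT_MII and 657 ± 4 FPKM in Treat_MII. In WT_MII, 11 of the 13 lay lower than in WT_FGO, beside 8823 of all 15129 tested genes. Of the 13, 9 were lower without overlap (69.2%), against 25.8% of all tested genes and 38.4% of those that averaged at least 10 FPKM. Only Eif3f passed the test. The median difference of the 13 was -1.72 on the log2 scale, beside -0.44 over all tested genes and -0.57 over those that averaged at least 10 FPKM.

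Eif3f had 137.1 and 60.3 in WT_FGO, 11.2 and 8.0 in WT_MII, and 16.7 and 26.8 FPKM in Treat_MII, from 14, 7, 2, 2, 6 and 8 reads. WT_FGO was above all metaphase II libraries. The maturation difference was -3.13 ± 0.65 (SE, limma, adjusted p = 0.0452). This call ended in 13 of 16 alternatives, among them the replicate block (adjusted p = 0.0699), a pseudocount of 0.1 (0.0539) and quantile normalization (0.0738). Eif3k, the most footprinted subunit gene in WT_FGO, had 556.5 and 436.4 in WT_FGO, 129.0 and 184.3 in WT_MII, and 124.2 and 180.1 FPKM in Treat_MII. Both metaphase II groups lay well below WT_FGO, and the difference of -1.67 ± 0.36 (adjusted p = 0.0511) missed the threshold. Eif3l had 94.0 and 115.7 in WT_FGO and 3.6 and 17.9 FPKM in WT_MII, with a difference of -3.50 ± 0.77 (adjusted p = 0.0536). eIF3k and eIF3l form a pair at the edge of the complex.

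Eif3i, whose product sits with eIF3b and eIF3g, was the only subunit gene with both WT_MII libraries above WT_FGO. It had 108.8 and 76.5 in WT_FGO, 180.3 and 288.7 in WT_MII, and 247.7 and 193.5 FPKM in Treat_MII, with every metaphase II library above WT_FGO. The maturation difference was 1.31 ± 0.40 (SE, limma, adjusted p = 0.117), which did not pass the test. In both metaphase II groups its own mean was higher than in WT_FGO, and the sum of the other subunits was lower. Eif3i accordingly made up 6.83% of the eIF3 footprints per length in WT_FGO, 40.9% in WT_MII and 33.6% in Treat_MII. Without it, the eIF3 genes summed to 1353 and 1154 in WT_FGO, 314.4 and 348.0 in WT_MII, and 411.8 and 460.8 FPKM in Treat_MII.

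Of the remaining subunits, Eif3a, Eif3c, Eif3g, Eif3h and Eif3m had differences of -1.72, -1.90, -1.82, -2.70 and -4.60 at maturation, all with WT_FGO above WT_MII, and limma adjusted p from 0.0792 to 0.18. Eif3m rested on 12 reads in WT_FGO and 1 in WT_MII, and 65.0% of its coding words occur in other transcripts. Eif3d was also lower without overlap (-0.74; -0.42 without WT_MII_1 and -0.44 without WT_FGO_2), and Eif3b and Eif3e overlapped. Eif3j1 had a single read in each Treat_MII library and none elsewhere.

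**Figure D2:**
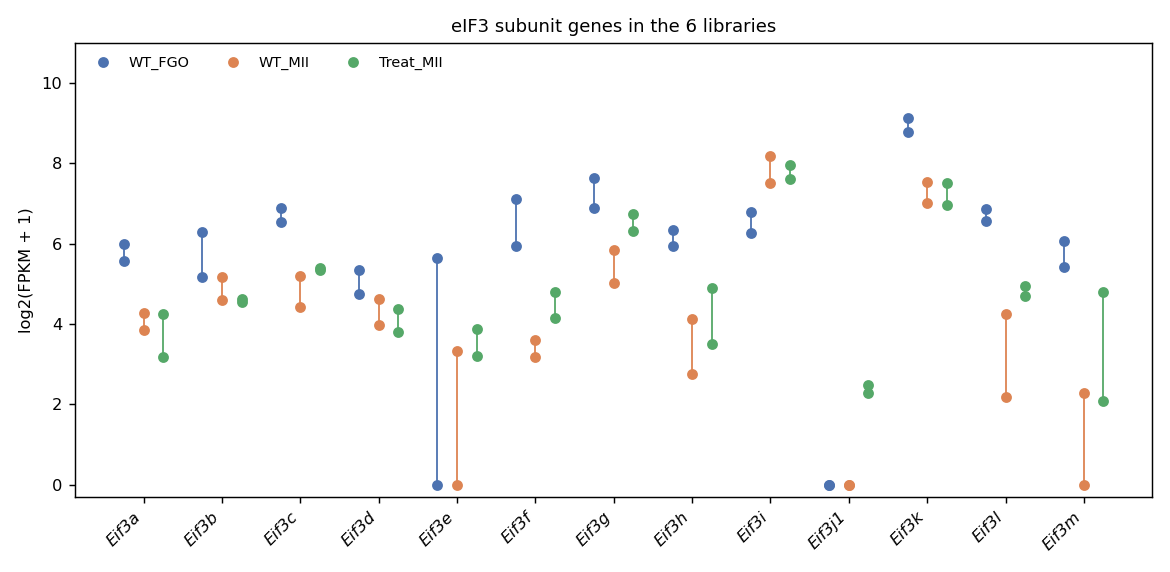
Level of the 13 eIF3 subunit genes on the scale of log2(FPKM + 1), with both libraries of each group as points joined by a line. The WT_FGO points lie above both WT_MII points for 9 genes, and Eif3i alone has both WT_MII points above WT_FGO; points at 0 are libraries without a read.

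Eif4e1b, the oocyte paralog of the cap-binding protein, had 1255.5 and 612.2 in WT_FGO, 150.1 and 111.9 in WT_MII, and 237.2 and 210.9 FPKM in Treat_MII, from 110, 61, 23, 24, 73 and 54 reads. The groups did not overlap, with Treat_MII between the other 2. Eif4e1b fell by 2.75 ± 0.41 (SE) on the log2 scale at maturation (limma, adjusted p = 0.0188). Its treatment difference was 0.78 ± 0.41 (adjusted p = 0.932), and its difference between Treat_MII and WT_FGO was -1.97 ± 0.41 (adjusted p = 0.065). Of its coding words, 37.5% also occur in another gene, most of all in Gm5705. Eif4e3, another member of the cap-binding family, had 358.6 and 270.3 in WT_FGO, 341.6 and 606.7 in WT_MII, and 597.8 and 531.7 FPKM in Treat_MII. Its WT_FGO and WT_MII libraries overlapped (difference 0.55 ± 0.36, adjusted p = 0.479), and the difference was 0.13 without WT_MII_2, 0.96 without WT_MII_1 and 0.34 without WT_FGO_2. The most footprinted cap-binding gene per length was thus Eif4e1b in WT_FGO and Eif4e3 at metaphase II. Eif4e1b held 65.7% ± 8.6 (SD, n = 2) of the summed FPKM in WT_FGO and 20.4% ± 10.4 in WT_MII, and Eif4e3 23.4% ± 4.1 and 67.1% ± 5.5. In Treat_MII the shares were 24.6% and 62.1%. Eif4e, the general cap-binding protein, stayed between 36.4 and 125.8 FPKM, and Eif4e2, which binds caps without recruiting eIF4G, between 12.6 and 54.9 FPKM, both with overlapping groups. Reads of Eif4e and Eif4e3 are shared with other transcripts over more than 50% of their words.

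**Figure D3:**
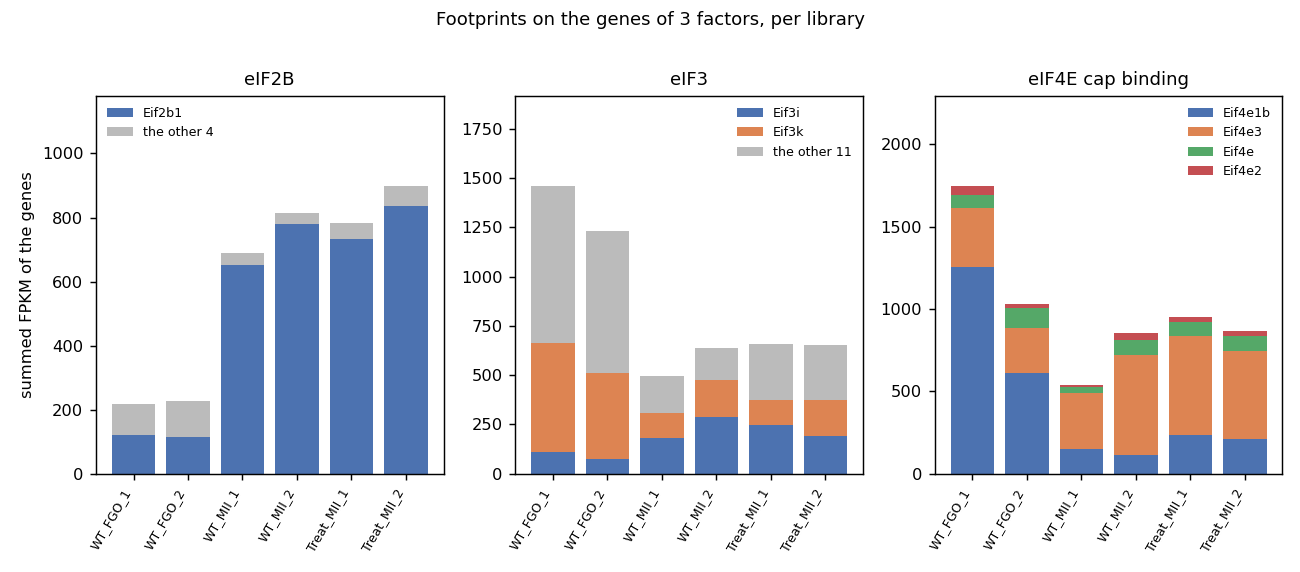
Summed FPKM of the genes of eIF2B, eIF3 and the eIF4E cap-binding family in each library (bars from 0), split by gene. Eif2b1 makes up 49.99% and 55.6% of the eIF2B bars in WT_FGO and at least 92.8% in each metaphase II library, and Eif4e1b is the largest part of the cap-binding bars in both WT_FGO libraries and Eif4e3 in the other 4.

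The 3 genes whose products hold eIF4E away from eIF4G had lower means in WT_MII than in WT_FGO, and Eif4enif1 alone passed the test. Eif4enif1, which encodes the eIF4E transporter (4E-T), had 151.0 and 294.0 in WT_FGO, 12.3 and 17.6 in WT_MII, and 40.9 and 34.5 FPKM in Treat_MII, from 42, 93, 6, 12, 40 and 28 reads. None of the 3 groups overlapped with another. Eif4enif1 fell by 3.75 ± 0.53 (SE) at maturation (limma, adjusted p = 0.0153), and the treatment difference of 1.29 ± 0.53 (adjusted p = 0.849) did not pass the test. The difference between Treat_MII and WT_FGO was -2.46 ± 0.53 (adjusted p = 0.0675). Eif4ebp2 had 88.4 and 51.8 in WT_FGO, 16.8 and 24.1 in WT_MII, and 16.8 and 0 FPKM in Treat_MII, from 10 reads in all, with differences of -1.70 ± 1.35 (adjusted p = 0.492) at maturation and -2.33 ± 1.35 (adjusted p = 0.932) with treatment. The treatment difference was -4.40 without Treat_MII_1 and -0.25 without Treat_MII_2. Eif4ebp1 had 4 reads, all in WT_FGO_2.

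No scaffold, helicase or helicase cofactor gene passed the test. Eif4g2 (DAP5), a scaffold that lacks the eIF4E-binding part, was the highest of the eIF4G genes, with 122.5 and 156.7 in WT_FGO, 159.2 and 257.8 in WT_MII, and 278.0 and 228.7 FPKM in Treat_MII. The nearest WT_FGO and WT_MII libraries were 156.7 and 159.2 FPKM, and the difference was 0.54 ± 0.37 (SE, limma, adjusted p = 0.49); it was 0.20 without WT_MII_2 and 0.89 without WT_MII_1. Eif4g1, the main scaffold, stayed between 27.95 and 48.0 FPKM, and Eif4g3 between 8.2 and 23.0 FPKM. Eif4a2, the most footprinted eIF4A helicase gene, had 155.0, 121.2, 206.8, 246.3, 203.5 and 247.6 FPKM. All its metaphase II libraries were above WT_FGO, with a maturation difference of 0.72 ± 0.33 (adjusted p = 0.27). Eif4a3, the helicase of the exon junction complex, and the eIF4A cofactors Eif4b and Eif4h had differences of -1.46 ± 0.54, -1.92 ± 0.84 and -1.12 ± 0.52, with WT_FGO above WT_MII in each and adjusted p from 0.176 to 0.274. Eif4a3 was at -0.88 without WT_FGO_2, and Eif4b and Eif4h were at -1.22 and -0.60 without WT_MII_2. Of the coding words of Eif4a3, 54.3% occur in other transcripts. The paralogs Eif4a1 and Eif4a3l2 gave values in 4 and 2 of the 6 libraries.

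Eif1ax encodes eIF1A, which with eIF1 keeps the small subunit open for scanning. It had 859.1 and 518.0 in WT_FGO, 56.1 and 70.2 in WT_MII, and 104.8 and 109.2 FPKM in Treat_MII, from 35, 24, 4, 7, 15 and 13 reads. No group overlapped another, and WT_FGO was far above both. Eif1ax fell by 3.39 ± 0.38 (SE) at maturation (limma, adjusted p = 0.00735), and Treat_MII differed from WT_FGO by -2.63 ± 0.38 (adjusted p = 0.0206). The treatment difference was 0.76 ± 0.38 (adjusted p = 0.932).

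Eif1b, the close paralog of eIF1, had the highest footprint level of all members in WT_FGO, at 1391.1 and 706.8 FPKM, against 194.4 and 101.0 in WT_MII and 140.8 and 148.1 FPKM in Treat_MII. The treated libraries lay between the WT_MII libraries. It fell by 2.81 ± 0.47 (SE) at maturation (limma, adjusted p = 0.0251), and Treat_MII differed from WT_FGO by -2.77 ± 0.47 (adjusted p = 0.0354). Eif1 itself had 4 reads in all, and 98.1% of its coding words occur elsewhere, so Eif1 and Eif1b cannot be compared.

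Eif5, the GTPase activator of eIF2, had 32.8, 93.8, 37.5, 13.4, 53.7 and 22.5 FPKM and overlapping groups, as had Eif5b, which joins the subunits, and Eif6, which keeps the large subunit apart. Eif1ad, a gene with an eIF1A-like domain, had 3 reads in WT_FGO, none in WT_MII and 1 in Treat_MII, too few for a fold. Eif5a, which acts mainly in elongation and termination despite its name, had 550.8 and 282.5 in WT_FGO, 577.3 and 590.6 in WT_MII, and 561.9 and 730.4 FPKM in Treat_MII, with a maturation difference of 0.56 ± 0.37 (SE, limma, adjusted p = 0.482). Without WT_FGO_2 the difference was 0.0839 and without WT_FGO_1 it was 1.04. It was among the 12 members that averaged 100 FPKM or more.

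The maturation calls depended on which libraries entered the fit. WT_FGO_2 was the library with the most granulosa footprints. Without it, Eif2b1, Eif1ax, Eif3f, Eif4e1b and Eif4enif1 were still called, with differences of 2.55, -3.75, -3.72, -3.27 and -3.27. Eif1b was then not called (-3.30), and Eif2a was added. Without WT_FGO_1, Eif1b and Eif3f were not called (adjusted p = 0.11 and 0.0845), and Eif4a3 and Eif4ebp1 were added as lower. Without WT_MII_1 or WT_MII_2 only Eif2b1 kept its call among the 6 (adjusted p = 0.0177 and 0.0207), with Eif3l added as lower without WT_MII_2. Without either Treat_MII library, which enter only the estimate of the spread, no gene of the table was called at maturation (Eif2b1 adjusted p = 0.104 in both cases). Centring the libraries on their median moved the maturation difference of the median gene by 0.46 and kept the calls of Eif2b1, Eif1ax and Eif4enif1.

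**Figure D4:**
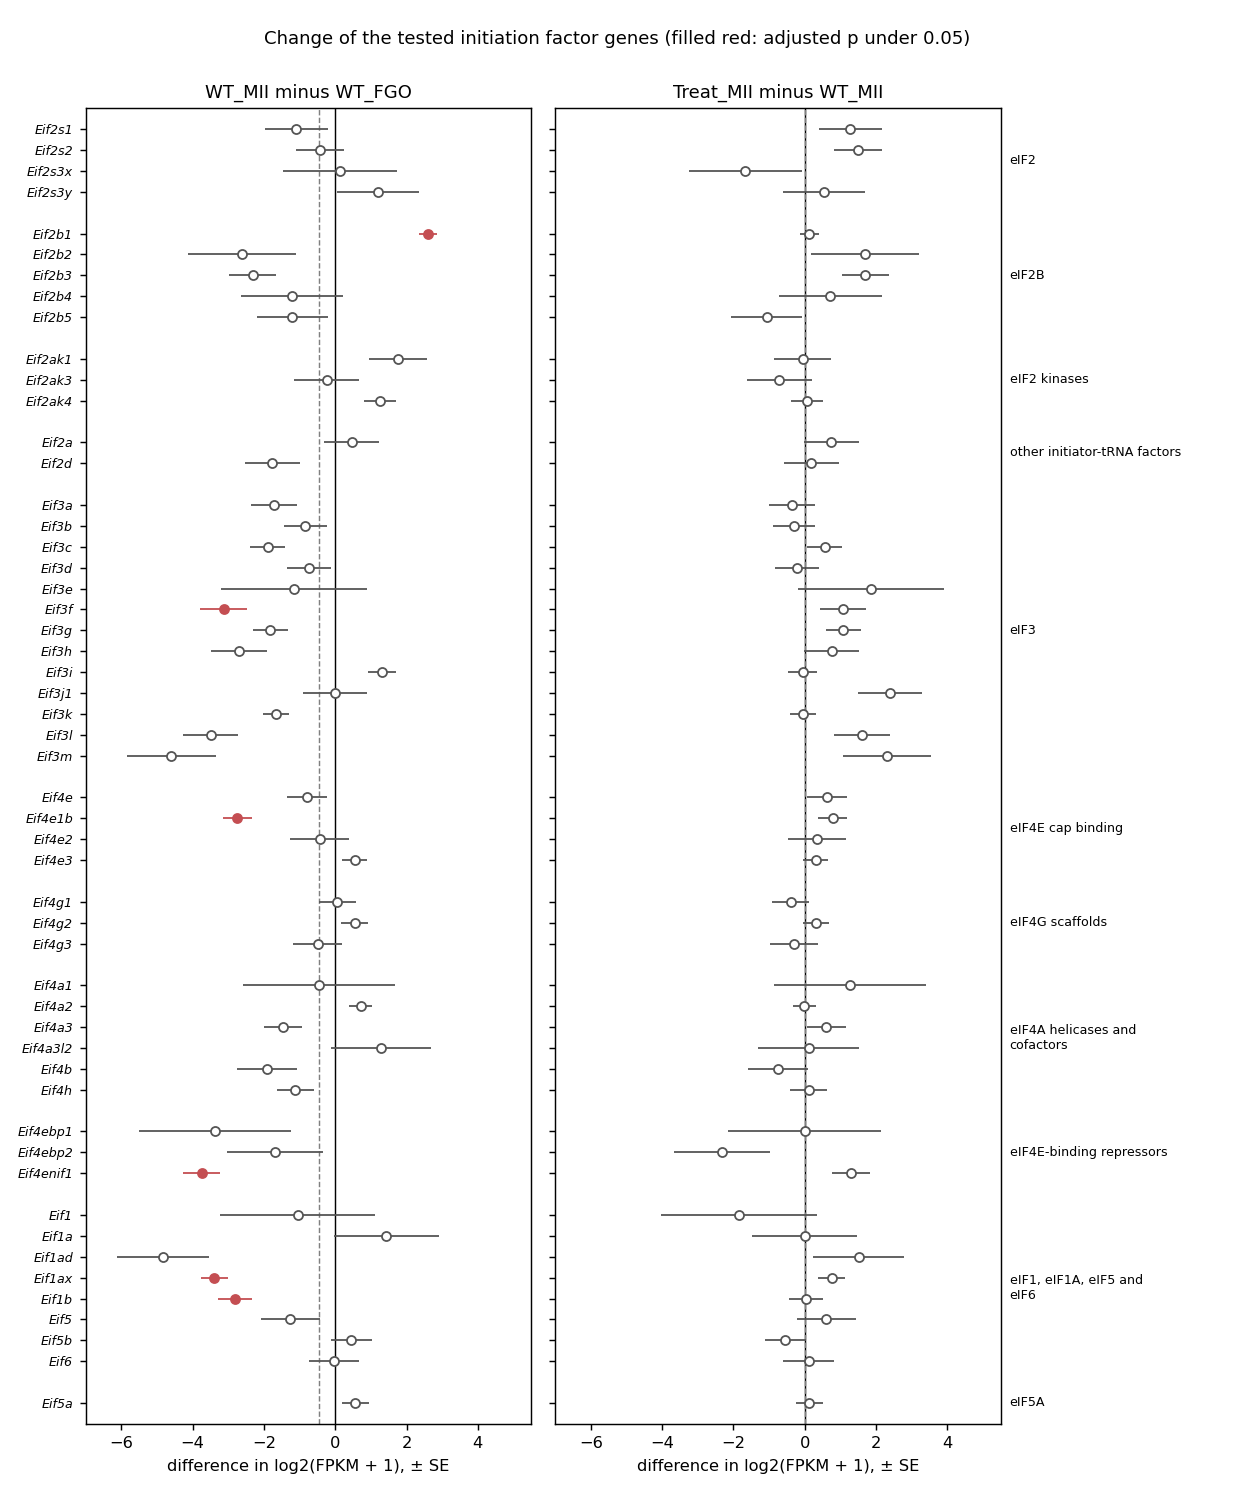
Difference in log2(FPKM + 1) of the 52 tested initiation factor genes, grouped by factor, for WT_MII minus WT_FGO (left) and Treat_MII minus WT_MII (right). Points are limma estimates with SE, filled red points have an adjusted p under 0.05, the solid line is 0 and the dashed line the median of all 15129 tested genes (-0.44 on the left, 0.00 on the right). On the left 36 of 52 points lie below 0, beside 8823 of all 15129 tested genes, and on the right no point is filled.

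Treatment was compared with control at metaphase II to ask which of these genes had other footprint levels after culture with the rG4 ligand. In the study, fewer oocytes released the first polar body as the ligand concentration rose. The treated oocytes that did reach metaphase II had abnormal spindles. Whether stage differed between the Treat_MII and WT_MII libraries was not tested. No initiation factor gene was called, and none of the 15129 tested genes was (0%, limma). At an unadjusted p under 0.05 there were 3 of 52 members, beside 5.82% of all tested genes. Among genes that averaged at least 10 FPKM it was 2 of 44 members, beside 482 of 6521 genes. The median difference of the members was 0.25 on the log2 scale, beside 0.00 over all tested genes. For those that averaged at least 10 FPKM it was 0.31 over the members and 0.08 over all such genes. Of the members, 34 were higher and 17 lower, beside 7189 and 6971 of all tested genes. At a mean of at least 10 FPKM, 30 members were higher and 13 lower, beside 3499 and 2946 of such genes. Centring the libraries moved the treatment difference of the median gene by -0.12. Libraries did not overlap for 13 members that were higher in Treat_MII (25.0%, against 16.2% of all tested genes) and for 4 that were lower (7.69%, against 15.6%). Among genes that averaged at least 10 FPKM this was 12 of 44 members higher, against 21.9%, and 2 lower, against 18.4%. At least 2-fold, without a test, 11 members were higher and 4 lower, beside 19.9% and 21.2% of all tested genes. Of the 44 that averaged at least 10 FPKM, 10 were higher and 2 lower, beside 1004 and 908 of 6521 genes.

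The 13 were Eif2s1 and Eif2s2 of eIF2, Eif2b3 of eIF2B, Eif2a, the eIF3 genes Eif3c, Eif3f, Eif3g, Eif3j1 and Eif3l, and Eif4e1b, Eif4a3, Eif4enif1 and Eif1ax. Of these, Eif3j1 passed the filter only through a single read in each Treat_MII library, so its place here carries no weight. It also entered the 2-fold and unadjusted counts over all members. Eif3g, an RNA-binding subunit, had 56.8 and 31.6 in WT_MII and 78.6 and 105.8 FPKM in Treat_MII (difference 1.09 ± 0.50, SE, limma, adjusted p = 0.927), which was 0.67 without WT_MII_2. Eif3l had 3.6 and 17.9 in WT_MII and 25.0 and 30.02 FPKM in Treat_MII (1.61 ± 0.77, adjusted p = 0.932). Its difference was 0.59 without WT_MII_1 and 2.63 without WT_MII_2. The 4 lower genes were Eif2b5, Eif2ak3, Eif4g1 and Eif4ebp2. Of the genes with more than 500 FPKM in a metaphase II library, Eif2b1, Eif4e3 and Eif5a had overlapping treated and control libraries, with differences of 0.13, 0.31 and 0.13.

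Treat_MII against WT_FGO called Eif2b1 as higher and Eif1ax and Eif1b as lower, beside 2.86% and 0.998% of all tested genes. The calls of Eif1ax and Eif1b ended without either WT_MII library (limma, adjusted p from 0.0747 to 0.0914) or either Treat_MII library (0.156 to 0.274), that of Eif1b also without WT_FGO_1 or WT_FGO_2 (0.124 and 0.0667), and that of Eif2b1 without Treat_MII_2 (0.0525). The median difference was -0.76 over the members and -0.53 over all tested genes, and -0.82 and -0.61 for those that averaged at least 10 FPKM. Libraries did not overlap for 25 members that were lower (48.1%, against 28.9%) and 12 that were higher (23.1%, against 16.6%). At an unadjusted p under 0.05 there were 17 members, beside 19.9% of all tested genes. Without a test, 9 members were at least 2-fold higher and 24 lower, beside 21.2% and 45.5%. Of the 44 members that averaged at least 10 FPKM, 24 were lower without overlap (54.5%, against 41.8%) and 10 higher (22.7%, against 25.2%). The unadjusted count was 16 of these 44, beside 2291 of 6521 genes. The 2-fold counts were 5 higher and 21 lower, beside 1462 and 2929. This comparison shares the WT_FGO libraries with the maturation comparison and the Treat_MII libraries with the treatment comparison.

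Because the treatment is an rG4 ligand, the transcripts of the members were searched for a G-quadruplex motif, which was set as 4 runs of 3 or more G, spaced by 1 to 7 bases, on the transcript strand, in the longest coding transcript of each gene. The matches in 5′-UTRs, in Eif4enif1 (chr11), Eif5 (chr12) and Eif6 (chr2), at bases 42 to 65, 150 to 172 and 378 to 406 of their 5′-UTRs, are shown because a folded leader would lie in the path of the scanning subunit; capitals mark the G runs.
Eif4enif1: GGGGcctGGGtgaGGGGccaGGGG
Eif5: GGGGcGGGctccGGGGccgaGGG
Eif6: GGGcatctgaGGGGcccgagaGGGcGGGG
The motif was found in 5′-UTRs of 3 of the 50 members whose transcript has this region annotated (6%) and 7.2% of 14289 tested genes, in coding sequences of 2 members (Eif3c and Eif4g1; 3.85% against 4.52%) and in 3′-UTRs of 5 (Eif2ak2, Eif4a1, Eif4ebp2, Eif4g1 and Eif4h; 10% of 50 against 10.8%). These matches are letters in the sequence and not folded structures. The 7 tested members with a motif in either UTR had a median treatment difference of 0.11 on the log2 scale (5 higher), and the 42 members with an annotated UTR and no motif in it 0.33 (28 higher). Eif4enif1, Eif5 and Eif6 had treatment differences of 1.29, 0.61 and 0.11, with adjusted p of 0.849 or more. Without WT_MII_2 those of Eif5 and Eif6 were -0.10 and -0.17, and without WT_MII_1 they were 1.31 and 0.39. Without a Treat_MII library Eif5 was at -0.0059 (Treat_MII_1) or 1.22 (Treat_MII_2), and Eif6 at 0.29 or -0.0651.

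Genes that work with the initiation factors but have other symbols were read from a list of 23. At maturation 4 rose and 2 fell, beside 3.67% and 3.09% of all tested genes. Ddx3x, a DEAD-box helicase that assists initiation on structured leaders and the gene of the list with the highest mean over the 6 libraries, had 421.8 and 366.2 in WT_FGO, 1767 and 2508 in WT_MII, and 2689 and 2698 FPKM in Treat_MII (2.42 ± 0.24, SE, limma, adjusted p = 0.00498). Paip1, a coactivator that binds the poly(A)-binding protein, rose by 2.09 ± 0.30 (adjusted p = 0.0156), and Paip2, an inhibitor of the same protein, fell by 3.05 ± 0.26 (adjusted p = 0.0033). Paip1 had 326.8 and 486.7 in WT_FGO and 1403 and 2054 FPKM in WT_MII, while Paip2 had 1938 and 2030 in WT_FGO and 211.8 and 267.8 FPKM in WT_MII.

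Mknk1, a kinase that phosphorylates eIF4E, was at 0 in both WT_FGO libraries and at 34.1 and 41.7 FPKM in WT_MII (adjusted p = 0.0175). Ppp1r15a (GADD34), which directs a phosphatase to eIF2, had 5.4 and 4.7 in WT_FGO and 46.1 and 33.0 FPKM in WT_MII (2.73 ± 0.57, SE, limma, adjusted p = 0.0453). Pabpc1l, the embryonic poly(A)-binding protein, had 337.7 and 281.6 in WT_FGO and 0 and 11.9 FPKM in WT_MII (adjusted p = 0.0334). None of the 23 was called with treatment, and their median differences were -0.90 at maturation and 0.36 with treatment, beside -0.44 and 0.00 over all tested genes. Over tested genes that averaged at least 10 FPKM the medians were -0.57 and 0.08.

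Of 13 tested elongation and termination factor genes, Etf1 and Gspt2, the parts of the release factor complex that read the stop codon and bind GTP, fell at maturation (limma, adjusted p = 0.0147 and 0.0453) and none rose. Etf1 had 48.5 and 64.0 in WT_FGO and 0 in both WT_MII libraries. Gspt2 had 118.8 and 189.9 in WT_FGO and 30.9 and 28.7 FPKM in WT_MII. Eef1b2, the gene of this list with the highest mean over the 6 libraries, had 146.9 and 258.3 in WT_FGO and 152.7 and 38.2 FPKM in WT_MII. Of all tested genes, 3.09% were called lower and 3.67% higher. The median maturation difference of the 13 was -1.34, beside -0.44 over all tested genes, and 8 were lower without overlap (61.5%, against 25.8%). Of tested genes that averaged at least 10 FPKM, 38.4% were lower without overlap, and their median difference was -0.57.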

How the data were processed

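Ribo-lite libraries of mouse oocytes (6 libraries, 3 groups, n = 2) were analysed from FPKM values that the authors made per library from footprint reads placed on mm10. The submitters' processing notes name cutadapt 1.14, Bowtie2 2.2.2 and STAR 2.5.3a; which counter and gene models were used, and whether molecular identifiers were collapsed, is not given in the sources used here. No spike-in scaling is stated. Of 22442 rows, 26 further entries of a gene name were dropped, keeping the entry with the highest mean.

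Reads were recovered by multiplying FPKM by the union coding length in GENCODE mouse release 21: 98.4% of 21937 genes gave whole reads in all 6 libraries, with a tolerance of 0.02 reads. The floor was set at 3 reads; it covers counting error only, since PCR copies are not independent molecules.

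log2(FPKM + 1) of genes averaging at least 1 FPKM was fitted with limma 3.58.1 (lmFit, eBayes with a mean-variance trend) in R 4.3.3, with all 6 libraries and 3 group terms, and Benjamini-Hochberg adjustment over all genes tested. The scale understates the change of low genes. Same-numbered libraries were not taken as pairs. Genes given with a test were those called in a comparison, the highest of each factor, and those averaging at least 10 FPKM, at least 2-fold in the ratio of mean FPKM + 1 and no overlap of libraries; values of a few others were chosen after they were seen. The members and lists were chosen with earlier results of these data known. Values behind shared words are counts of 28-base words. Alternatives were other pseudocounts, filters, normalizations, weights and samples, a replicate block, a 2-fold rule and leaving out each library; the filter of at least 60 reads was added after seeing the data.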

Additional observations from a re-analysis of the deposited data

How the results depend on the processing

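As reported, 1 and 5 initiation factor genes were higher and lower at maturation, 0 and 0 with treatment, and 1 and 2 in Treat_MII against WT_FGO. Only the compared groups, or eBayes without trend, gave 0 in every comparison. Over all genes the former called 0 at maturation and the latter 188 higher and 140 lower. For Treat_MII against WT_FGO the former called 31 higher and 1 lower over all genes, and the latter 56 and 3. At least 60 reads (chosen after seeing the data) gave 3 and 9 at maturation and 3 and 6 for Treat_MII against WT_FGO. Of all 2706 genes with that many reads, 745 were called higher and 509 lower at maturation, and 733 and 413 against WT_FGO. Without a filter there were 2 lower at maturation and 2 and 1 for Treat_MII against WT_FGO, and with centring 2 lower and 0 lower. Over all genes these were 187, 383 and 71 without a filter, and 305 and 65 with centring. Lower counts against WT_FGO were 1 with a pseudocount of 0.1, 5 with a mean of at least 5 FPKM, 4 after quantile normalization and 5 with vooma weights. Over all genes, the same counts were 102, 232, 171 and 349. The 2-fold rule without a test gave 7 and 26 at maturation, 11 and 4 with treatment, and 9 and 24 for Treat_MII against WT_FGO. Leaving out a library leaves 1 library in its group, so counts of calls from those fits are not given here. Treatment calls among all tested genes appeared in those fits where a WT_MII or Treat_MII library was left out. Over all genes, treatment calls stayed at 0 in the alternatives with a test that left no library out, except for 27 higher genes without a filter, no member among them. The cause was not tested for any of these, except that fewer libraries or genes entered the fit where stated.

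A replicate block gave 1 higher and 4 lower at maturation, beside 453 and 335 over all genes, and ended the call of Eif3f (limma, adjusted p = 0.0699). Same-numbered libraries deviated together with r = 0.0342, 0.0176 and 0.0189 over 2706 genes. With n = 2 per group and few reads per gene, these values cannot show whether they shared a collection or a batch. Of 17 alternatives with a test, Eif2b1 was called at maturation in 13 (2.46 to 3.06), Eif1ax and Eif4enif1 in 11, Eif4e1b in 9 and Eif1b in 7, and Eif3f in 3 of 16. Against WT_FGO, Treat_MII was called for Eif2b1 in 14 of 17, Eif1ax in 10 and Eif1b in 6.

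Differences with no call changed sign for these genes given with a difference. At maturation Eif2s2 was 0.0435 with centring and 0.18 after quantile normalization, and leaving out a library gave -1.11 to 0.27 for Eif2s2 and -0.63 to 1.56 for Eif2a. With treatment Eif1b was -0.0725 with centring and -0.0301 after rescaling to a common total, and Eif4a2 was 0.0298 after quantile normalization. Leaving out a library gave -0.43 to 0.51 for Eif1b, -0.70 to 0.58 for Eif2ak1, -0.31 to 0.22 for Eif3k, -0.15 to 0.13 for Eif4a2, -0.11 to 0.72 for Eif4e3, -0.0319 to 0.66 for Eif4g2, -0.0554 to 0.32 for Eif5a, -0.10 to 1.31 for Eif5 and -0.17 to 0.39 for Eif6. Depth limits the low members: 1 read per kb of coding sequence was 10.6 and 9.32 FPKM in WT_FGO but 3.02 and 3.63 FPKM in Treat_MII.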
